A study of Bos taurus with 36 samples.

Results

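ANKRD1, RFLNA and 8 further genes that respond to the transcription factor SRF or to the coactivator YAP (CCN1, CCN2, ACTA2, TAGLN, CNN1, SRF, VCL and AMOTL2) were followed in liver biopsies of dairy cows given LPS in the udder. The question was whether the other targets followed ANKRD1. Every probe set of the Affymetrix Bovine Genome Array whose only annotated symbol, current or older, was 1 of these 10 genes was taken, which gave 11 of 24128 probe sets for 9 of the 10 genes. ANKRD1 and VCL each had 2 probe sets, and AMOTL2, matched by no probe set of its own, was not analysed here. ANKRD1 and RFLNA were chosen by their large measured rises at 6 and 9 h, so their values and changes are given as a description with no test, while the other genes were selected for their role.

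The 8 Holstein-Friesian cows had calved for the first time 9 to 12 weeks earlier, and all received the same treatment, 200 µg of E. coli LPS in 10 ml of 0.9% NaCl into the right front gland of the udder and the same volume of NaCl alone into the left front gland. Each of 36 arrays holds the liver of 1 cow at 1 hour: all 8 cows at -22, 9 and 48 h relative to LPS, and cows 1, 3, 7 and 8 also at 3, 6 and 12 h. No array used here holds a cow without LPS, and the effect of LPS cannot be told apart from that of time of day or handling. Saline-infused control cows, which the methods of the study describe, were not analysed here. From them the study reports that biopsies altered neither clinical measures nor the RNA of some selected genes. The baseline was -22 h: the changes at 3, 6 and 12 h are the mean of 4 cows minus that of all 8 at -22 h, while counts of cows higher or lower set each cow against its own -22 h value. All cows sampled at 6 and 12 h had been biopsied in the hours before, and at 9 h only 4 of the 8 had. The deposited values are GCRMA log2 intensities with array medians between 4.15 and 4.38. Values near 2 or 3 lie near the lower end of this scale, where a change may be a lower bound, and levels of different probe sets cannot be compared.

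YAP and its relative TAZ are coactivators that enter the nucleus when the Hippo kinases are inactive or when a cell is stretched or spread, and act through the TEAD factors. SRF acts with MRTF, which is released when actin polymerizes, on genes of the contractile apparatus, and with the TCF factors on immediate early genes. In liver these programmes are best known from activated stellate cells, from vascular smooth muscle and from regenerating hepatocytes.

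ANKRD1 and RFLNA both reached their highest level at 9 h and were near the baseline at 48 h in most cows. Among the members tested only CCN1 was higher at each of 6, 9 and 12 h at an adjusted p below 0.05. Of all probe sets 23.3%, 32% and 22.2% were higher at these hours. CCN2 rose only at 9 and 12 h, ACTA2 fell at 6 and 9 h, CNN1 rose at 6 h alone, 1 of the 2 VCL probe sets fell at 6 h and rose at 12 h while the other rose at 9 h, and TAGLN and SRF passed the test at no hour. In biopsies of whole tissue, fewer cells of a type and less RNA per cell cannot be told apart.

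ANKRD1 encodes an ankyrin repeat protein of muscle that is also found in the nucleus, and it is widely used as a reporter of YAP and TAZ. At -22 h its brighter probe set (Bt.15836.1.S1_at) lay between 2.34 and 3.12, with a median of 2.56 over the 8 cows. At 3 h cows 1, 3, 7 and 8 had log2 values of 3.79, 9.09, 4.32 and 6.98. At 6 h the same cows had 12.03, 11.28, 10.35 and 10.25. The 3 h values thus spread over more than 5 log2 units, with an SD of 2.46 against 0.84 at 6 h, and cow 3 was ahead of the others.

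At 9 h ANKRD1 ranged from 10.53 in cow 8 to 13.85 in cow 3, with a median of 13.35. At 12 h cows 1, 3, 7 and 8 had 9.41, 12.06, 11.66 and 8.47. At 48 h 6 cows lay between 2.37 and 2.41, and cows 6 and 7 still had 7.59 and 6.01. All values from 3 to 12 h lay above the highest at -22 h, and in each of the 4 cows with all hours the peak was at 9 h. The mean log2 change from -22 h was 3.44 (SE 0.91, n = 4) at 3 h, 8.37 (SE 0.91) at 6 h, 10.27 (SE 0.74, n = 8) at 9 h and 7.79 (SE 0.91) at 12 h. Without cow 3 the change at 3 h was 2.38.

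The second ANKRD1 probe set (Bt.15836.2.S1_at) had the same course at a smaller size, with Pearson r = 0.983 with the first over the 36 arrays. Its mean was 3.00 at -22 h and 10.42 at 9 h, a log2 change of 7.42 (SE 0.48). At 3 h its change of 1.48 (SE 0.59) was 0.85 without cow 3. Cows 6 and 7 again stood above the other 6 cows at 48 h, with 4.94 and 4.18 against at most 3.08.

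Since ANKRD1 is also a gene of muscle, the 9 measured markers of skeletal muscle were read on each array. Their summed level was 953 to 5097 at -22 h, 4146 to 5850 at 3 h, 4643 to 6546 at 6 h, 2295 to 4785 at 9 h and 2912 to 9644 at 12 h. At 48 h it was 12398 in cow 6 and 830 to 2376 in the other cows, cow 7 having 1734. From 3 to 12 h the sum reflects in large part CKM, creatine kinase of muscle, the only marker of the 9 called higher at these hours. The mean of CKM was 8.67 at -22 h and 11.88, 12.06, 11.64 and 11.98 at 3, 6, 9 and 12 h. On the array of cow 6 at 48 h ACTA1, the skeletal muscle actin, was 13.14, against at most 8.81 on the other arrays of the hour, MYL1, a myosin light chain, was 9.52 against at most 3.98, and MB, myoglobin, was 7.97 against at most 3.62. CKM and MYH7 of this array, 7.43 and 9.43, lay within the ranges of the other cows (6.57 to 10.51 and 8.65 to 9.92). The part of muscle in the ANKRD1 value of cow 6 at 48 h was not tested.

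Muscle transcripts were also found on arrays of other hours. At -22 h cow 4 had an ACTA1 of 11.56, a MYL1 of 8.16 and an MB of 7.25, the highest of the hour, and its ANKRD1 was 2.78, within the range of the other cows. At 6 h ACTA1 reached 10.94, MYL1 6.71 and MB 5.87, and at 12 h they reached 10.62, 6.06 and 6.02. At 9 h, when ANKRD1 was highest in each of the 4 cows with all hours, ACTA1 was at most 8.75, TNNC2, a troponin, at most 6.10, MYL1 at most 5.00 and MB at most 3.90. Among the 9 muscle markers only CKM was called higher at 9 h (log2 change 2.97, SE 0.40), with values of 11.01 to 12.09, and MYH7 was called lower. The part of muscle in the ANKRD1 values of these hours was not tested. Without the array of cow 6 the ANKRD1 change at 48 h was 0.30 (SE 0.66) in place of 0.88 (SE 0.74).

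RFLNA encodes refilin A, which binds filamin and helps to bundle actin around the nucleus. Its -22 h values ran from 3.07 to 6.86 with a median of 4.46, a wider baseline than that of ANKRD1. At 3 h cows 1, 3, 7 and 8 had 8.62, 8.11, 6.09 and 7.26. At 6 h they had 11.14, 11.03, 9.98 and 10.53. Thus at 3 h only cow 7 lay within the baseline range, and at 6 h no cow did.

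At 9 h RFLNA ranged from 10.59 to 11.85 with a median of 11.37, and at 12 h the 4 cows had 9.43, 10.04, 9.61 and 10.20. At 48 h the range was 4.36 to 6.53, inside that of -22 h. The log2 change was 2.86 (SE 0.47) at 3 h, 6.01 (SE 0.47) at 6 h, 6.76 (SE 0.38) at 9 h, 5.16 (SE 0.47) at 12 h and 0.47 (SE 0.38) at 48 h. Cows 6 and 7, which had the highest ANKRD1 at 48 h, had RFLNA values of 4.77 and 4.80 there, in the middle of the group.

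**Figure D1:**
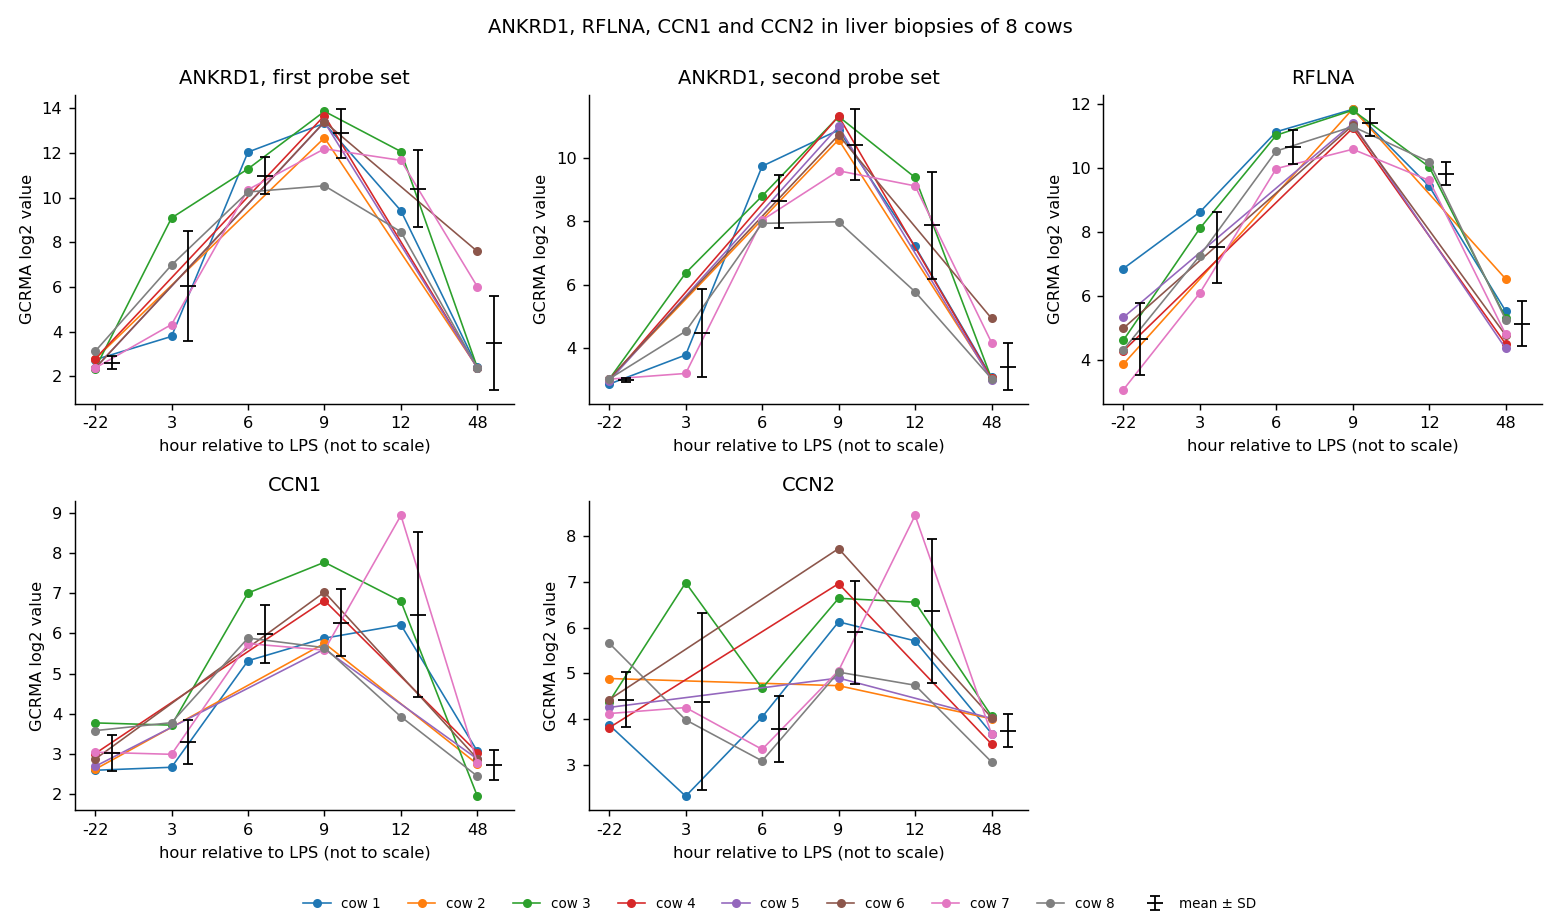
GCRMA log2 values (y axis) of the probe sets of ANKRD1, RFLNA, CCN1 and CCN2 by hour relative to LPS (x axis, not to scale), with 1 coloured line per cow and the mean and SD of each hour in black. ANKRD1 and RFLNA peak at 9 h in each of the 4 cows with all hours, cows 6 and 7 have ANKRD1 at 7.59 and 6.01 at 48 h, and CCN1 and CCN2 have their widest spread at 12 h and at 3 and 12 h.

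The remaining 7 genes were counted through 8 probe sets, with limma p-values adjusted over all probe sets (Benjamini-Hochberg, threshold 0.05). At 3 h 0 of the 8 were called by limma, and 0 had an unadjusted p below 0.05, against 3.5% (higher) and 2.4% (lower) over the whole array. At 6 h CCN1 and CNN1 were higher, and ACTA2 and the first VCL probe set lower, against 23.3% (higher) and 22% (lower) over the array. At 9 h 3 were higher (CCN1, CCN2 and the second VCL probe set) and 1 lower (ACTA2), against 32% and 22.6% over the array.

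At 12 h 3 were higher (CCN1, CCN2 and the first VCL probe set) and 0 lower, against 22.2% and 18.9%. At 48 h 0 were called by limma and 0 had an unadjusted p below 0.05, against 17.9% higher and 12.2% lower. From 6 to 12 h these counts are close to what the array as a whole gives for 8 probe sets.

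CCN1, also named CYR61, is a secreted matricellular protein and a direct target of YAP and of SRF. Its probe set (Bt.22000.1.A1_at) lay between 2.60 and 3.78 at -22 h, with a median of 2.94. At 3 h it was 2.67, 3.72, 3.00 and 3.78 in cows 1, 3, 7 and 8, within that range in 3 of the 4 cows, cow 8 exceeding it by less than 0.01. At 6 h the cows had 5.32, 7.00, 5.75 and 5.89, all above every baseline value.

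At 9 h CCN1 ranged from 5.58 to 7.77 with a median of 5.82, and at 12 h cows 1, 3, 7 and 8 had 6.21, 6.80, 8.93 and 3.93. The log2 change was 2.96 at 6 h (SE 0.52, adjusted p = 1.4e-05, higher in 4 of 4 cows), 3.23 at 9 h (SE 0.42, adjusted p = 6.4e-08, higher in 8 of 8) and 3.44 at 12 h (SE 0.52, adjusted p = 1.3e-06, higher in 4 of 4). The 9 h change equals 9.41-fold, which may be a lower bound since the baseline is low. At 3 h the log2 change was 0.27 (adjusted p = 0.80), a time at which ANKRD1 was already higher in all 4 cows. Cows also differed in the hour of the CCN1 peak, which was 12 h in cows 1 and 7, 9 h in cow 3 and 6 h in cow 8.

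CCN2, also named CTGF, is the matricellular relative of CCN1 and is known for its part in fibrosis. At -22 h its values ran from 3.81 to 5.66 with a median of 4.32. At 3 h cows 1, 3, 7 and 8 had 2.31, 6.99, 4.25 and 3.98. At 6 h they had 4.05, 4.67, 3.34 and 3.08, and no cow exceeded the baseline range. Cow 3 thus had the highest CCN2 at 3 h, as it had the highest ANKRD1.

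At 9 h CCN2 ranged from 4.73 to 7.73 with a median of 5.60, and 6 of 8 cows were above their own baseline. The log2 change was 1.47 (SE 0.51, adjusted p = 0.0167). At 12 h cows 1, 3, 7 and 8 had 5.71, 6.56, 8.46 and 4.74, a change of 1.94 (SE 0.63, adjusted p = 0.0119) with 3 of 4 cows higher. Single cows decided whether the threshold was passed: at 9 h the change was 1.23 without cow 4 (adjusted p = 0.0704) and 1.21 without cow 6 (adjusted p = 0.0610), and at 12 h it was 1.20 without cow 7 (adjusted p = 0.209). At 48 h all 8 cows were below their own baseline, by a mean of 0.68 (SE 0.51) that did not pass the test (adjusted p = 0.31).

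**Figure D2:**
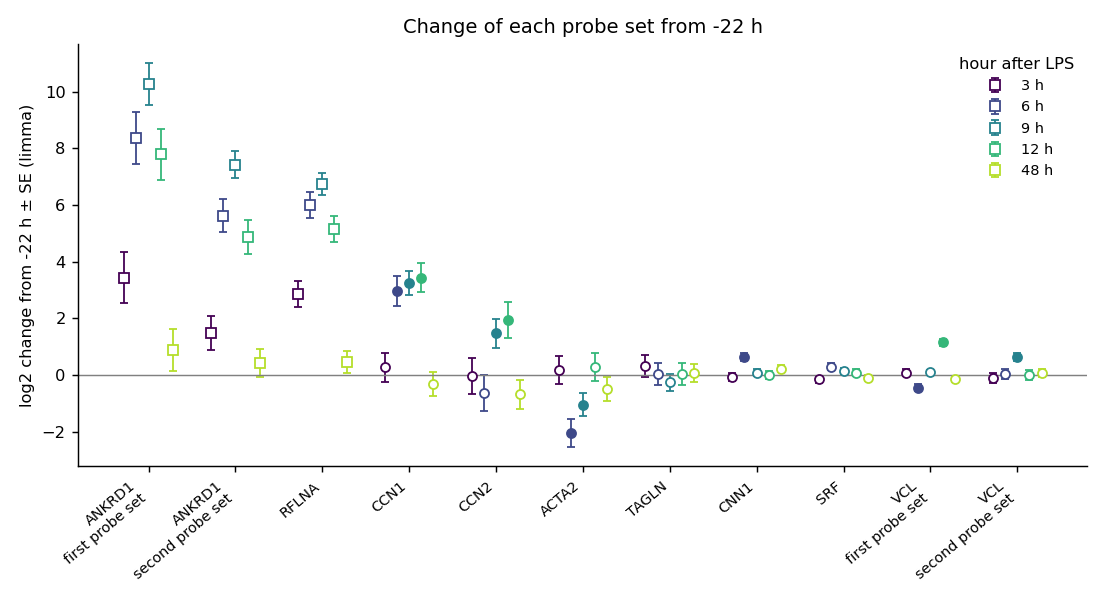
Log2 change of each of the 11 probe sets from -22 h (y axis, with the SE of limma) by gene (x axis) and hour (colour). Filled circles are calls at an adjusted p below 0.05, open circles are not called, and open squares are ANKRD1 and RFLNA, which were not tested. The ANKRD1, RFLNA and CCN1 changes stay far above 0 from 6 to 12 h, and those of ACTA2 at 6 and 9 h lie below it.

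The contractile and adhesion genes had no common course. ACTA2, the smooth muscle actin of vessel walls and activated stellate cells, ranged from 8.40 to 9.65 at -22 h, with a median of 9.17. At 6 h cows 1, 3, 7 and 8 had 6.93, 7.32, 5.91 and 8.09, each below every baseline value. The log2 change of the group mean was -2.04 (SE 0.51, adjusted p = 0.0011). Against their own baseline 4 of 4 cows were lower, with changes from -3.56 to -1.25 and a median of -1.38. At this hour ANKRD1 already stood above 10 in each of the 4 cows.

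At 9 h ACTA2 ranged from 5.70 to 9.36 with a median of 8.29, a change of -1.05 (SE 0.41, adjusted p = 0.0334, lower in 7 of 8 cows), and the groups overlapped. Without cow 7, the lowest, the change was -0.66 (adjusted p = 0.13), and the call was also lost, at nearly the same change, without cow 1 (-1.04, adjusted p = 0.0591), cow 5 (-1.02, adjusted p = 0.0649) or cow 8 (-1.03, adjusted p = 0.0750). By 12 h the cows were back at 8.56, 10.29, 9.28 and 9.44 (change 0.29, SE 0.51, adjusted p = 0.72). ACTA2 was 8.83 on the array of cow 6 at 48 h, within the range of the other cows, although ACTA1 was 13.14 there. How far this probe set also binds other actins was not tested.

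Of 5 smooth muscle markers measured, 0 were called higher and 3 lower at 9 h, when of 9155 genes read through 1 probe set each 36.6% were called higher and 28.4% lower. The 3 were MYH11, a smooth muscle myosin (log2 change -2.33), SMTN, smoothelin (-0.64), and MYLK, the kinase of myosin light chains (-0.44). At 6 h the same genes had changes of -1.08, -1.74 and -0.56 (adjusted p = 0.0008, 1.0e-06 and 0.0045). DES, desmin, of the same list was called at neither hour (0.72 at 6 h, adjusted p = 0.14, and 0.19 at 9 h) and was higher at 12 h (1.09, SE 0.41, adjusted p = 0.0315). The summed level of the 5 markers was 4801 to 8580 at -22 h, 4232 to 5478 at 6 h and 3526 to 6624 at 9 h. Of 10 stellate cell and fibroblast markers 2 were higher and 1 lower at 9 h, and PDGFRB and COL1A1 were below 5 on every array. The summed level of these 10 markers was 1536 to 4230 at -22 h and 2376 to 5933 at 9 h. At 9 h it was highest in cows 6, 4 and 3 (5933, 4549 and 3709), which also had the highest CCN1 and CCN2. Cow 1, with a sum of 2410, had a CCN2 of 6.13. At 12 h cow 7 had the highest sum (5774), CCN1 and CCN2. The part of these cells in the ACTA2, CCN1 and CCN2 values was not tested.

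TAGLN, or transgelin, is an actin-binding protein of smooth muscle. Its values ran from 6.05 to 7.27 at -22 h and from 5.09 to 7.59 at 9 h, so that the groups overlapped at both ends. The log2 change lay between -0.26 (9 h, SE 0.31, adjusted p = 0.47) and 0.32 (3 h, SE 0.38, adjusted p = 0.66). At 9 h 5 cows were higher and 3 lower than before LPS.

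CNN1, calponin of smooth muscle, was 4.56 to 4.96 at -22 h and rose at 6 h alone. Cows 1, 3, 7 and 8 had 4.76, 5.78, 5.07 and 5.85 then, a log2 change of 0.65 (SE 0.14, adjusted p = 0.0002, higher in 4 of 4). Cows 3 and 8 carried most of it, and the value of cow 1 lay within the baseline range. At 9 and 12 h the changes were 0.08 and -0.01, and at 48 h it was 0.23 (SE 0.11, adjusted p = 0.11), or 0.36 with an adjusted p of 0.0163 when each array was centred on its median.

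VCL, or vinculin, links integrin adhesions to actin, and its first probe set (Bt.27886.1.S1_s_at) followed a course of its own. At -22 h it lay between 6.83 and 7.22. At 6 h cows 1, 3, 7 and 8 had 6.61, 6.62, 6.36 and 6.76, each below every baseline value (change -0.45, SE 0.12, adjusted p = 0.0027). At 12 h they had 8.32, 8.44, 7.57 and 8.43, each above every baseline value (change 1.16, SE 0.12, adjusted p = 1.1e-09). In all 4 cows with all hours the lowest VCL value was at 6 h and the highest at 12 h, against a peak at 9 h for ANKRD1.

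The second VCL probe set (Bt.20821.1.A1_at) had a mean of 3.40 over the 36 arrays and r = 0.05 with the first. It was higher at 9 h, with a change of 0.64 (SE 0.15, adjusted p = 0.0004, 7 of 8 cows), where the first had 0.09 (adjusted p = 0.43). Its 12 h change was 0.01, against 1.16 for the first, so the 2 probe sets disagree on when VCL was higher.

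SRF itself, measured by Bt.6536.1.S1_at, stayed between 2.11 and 3.13 on all arrays, near the lower end of the scale. Its largest change was 0.29 at 6 h (SE 0.13, adjusted p = 0.0597), where cow 7 had 3.13 and the other 3 cows 2.20 to 2.52. This value passed the test without cow 8 (0.40, adjusted p = 0.0116) or with array weights (0.33, adjusted p = 0.0156). At this level a fall of SRF may not have been measurable.

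**Figure D3:**
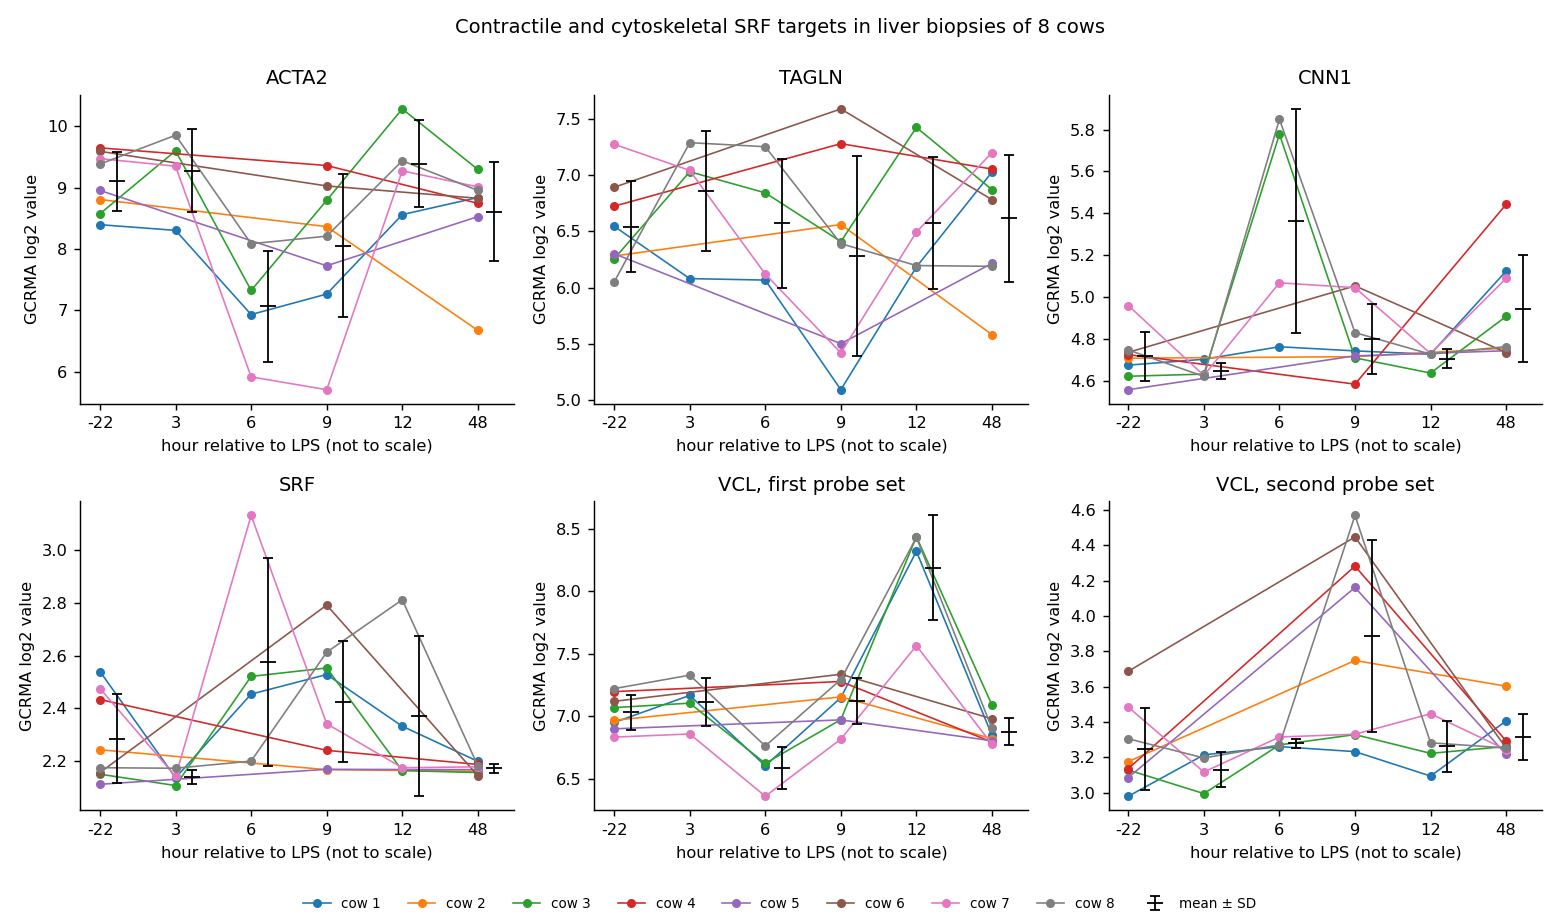
GCRMA log2 values (y axis) of ACTA2, TAGLN, CNN1, SRF and both VCL probe sets by hour relative to LPS (x axis, not to scale), with 1 coloured line per cow and the mean and SD of each hour in black. The y axes differ between panels. ACTA2 dips at 6 and 9 h, CNN1 is higher in cows 3 and 8 at 6 h, and the first VCL probe set is highest at 12 h.

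Successive hours were also compared, with a transcript counted as differentially expressed (DE) at a Bonferroni-adjusted p below 0.01 in 1 or more of the 5 comparisons. Of the 8 probe sets 2 were DE, against 22.2% of all probe sets. VCL (first probe set) rose by 1.07 from 9 to 12 h (limma, Bonferroni-adjusted p = 1.2e-05) and fell by 1.31 from 12 to 48 h (adjusted p = 9.0e-08). CCN1 fell by 3.74 from 12 to 48 h (limma, Bonferroni-adjusted p = 0.00096). With the cow as a replicate block the Bonferroni-adjusted p of CCN1 was 0.0121, and it was 0.0420 without cow 1, 0.0342 without cow 3 and 0.12 without cow 7. Between the same hours ANKRD1 went from 10.40 to 3.49 and RFLNA from 9.82 to 5.13, lower in 4 of 4 cows for each.

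Likeness to ANKRD1 was measured as Pearson's r over the 36 arrays, which share cows and hours, and is given as a description. Among 9154 other genes, each measured by its brightest probe set over the 36 arrays, RFLNA had r = 0.919 and rank 42, and CCN1 had r = 0.884 and rank 269. CCN2 had r = 0.593 (rank 2092), SRF 0.368, VCL 0.219, CNN1 0.10, TAGLN -0.073 and ACTA2 -0.291 (rank 6388). An r above 0.9 was found for 147 genes. With the mean of each hour removed, r with ANKRD1 was 0.578 for CCN2, 0.440 for CCN1, 0.293 for ACTA2 and 0.016 for RFLNA.

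The genes most like ANKRD1 were VMP1 (r = 0.947), a membrane protein of autophagy, TPM4 (0.942), a tropomyosin of the actin cytoskeleton, TNFRSF1A (0.940), the main receptor of TNF, RBM17 (0.939), a splicing factor, H2AZ1 (0.937), a variant histone, and UBA2 (0.936), a subunit of the SUMO-activating enzyme. Their log2 changes at 9 h ran from 1.51 (SE 0.08) for H2AZ1 to 2.75 (SE 0.12) for TPM4. Those most like RFLNA were RBM17 (0.977), ATP1B3 (0.971), a subunit of the sodium pump, PAICS (0.971), an enzyme of purine synthesis, and NECAP1 (0.969), an endocytic adaptor. RFLNA had 420 genes with r above 0.9.

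Within 9 h, the order of the 8 cows for ANKRD1 was set against that for 9 other probe sets. ANKRD1 was chosen by its mean rise and not by differences between cows, and for the genes selected by role exact permutation p-values, two-sided, are given. At the level of values no Pearson correlation of these genes passed 0.05. CCN1 had r = 0.605 (exact p = 0.0937) and Spearman's coefficient = 0.786 (exact p = 0.0279, or 0.25 adjusted over the 9 relations), and CCN2 had r = 0.578 (exact p = 0.12) and Spearman's coefficient = 0.643 (exact p = 0.0962). RFLNA, given as a description, had r = 0.357. Cow 8 had the lowest ANKRD1 (10.53) and a CCN1 of 5.65, and cow 3 the highest of both (13.85 and 7.77).

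For levels without cows 7 and 8, the farthest from the median of ANKRD1, r was 0.730 for CCN1 (exact p = 0.0806) and 0.627 for CCN2 (exact p = 0.18). ANKRD1 was chosen by its mean change from -22 h, so correlations of the change of each cow from its own -22 h value are given as a description. With changes in place of levels r was 0.832 for CCN1, 0.736 for CCN2 and -0.253 for RFLNA.

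**Figure D4:**
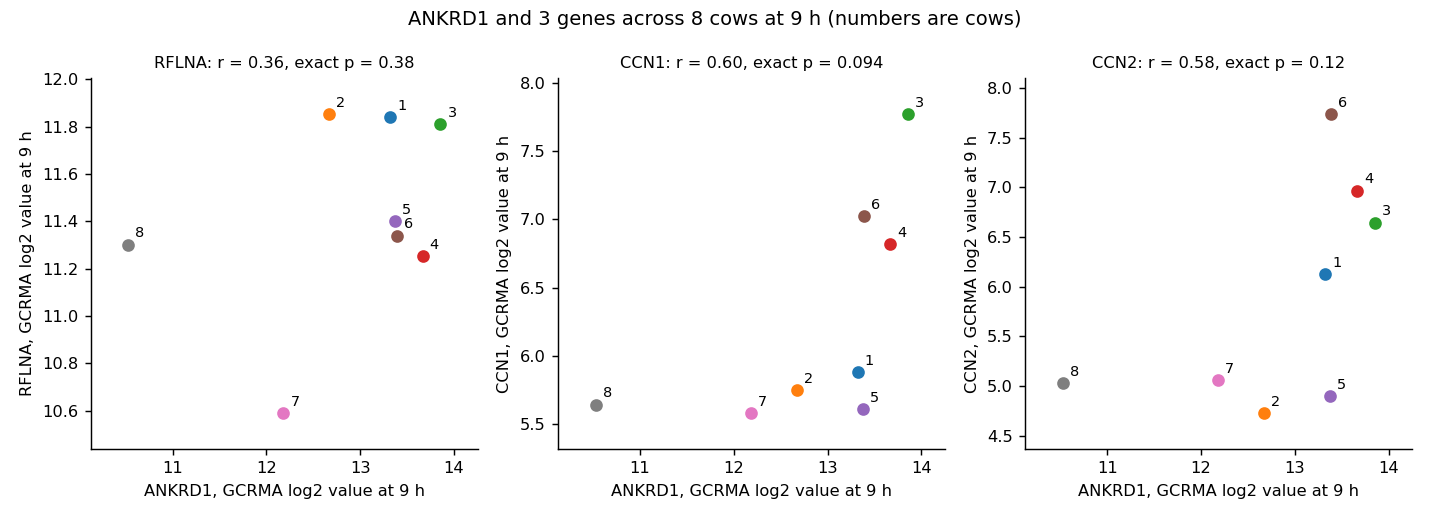
GCRMA log2 values at 9 h of ANKRD1 (x axis) and of RFLNA, CCN1 and CCN2 (y axis, 1 panel each), with 1 numbered point per cow. Cows 3, 4 and 6 lie high for ANKRD1, CCN1 and CCN2, while cows 1, 2 and 3 are highest for RFLNA.

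By 9 h, 4 cows had been biopsied at 3 and 6 h and 4 had not, so that the 9 h change could be compared between them. ANKRD1 changed by 9.83 ± 1.76 (SD, n = 4) in cows with earlier biopsies and by 10.71 ± 0.54 (SD, n = 4) in cows without, and RFLNA by 6.67 ± 1.15 and 6.84 ± 0.85. Of the 8 probe sets of the other genes 0 differed at an exact p below 0.05, the smallest p this design allows being 0.0286 over 70 splits. In limma's test of the same difference over all probe sets 0 (0%) were called, with 936 (3.88%) at an unadjusted p below 0.05. Without cow 8 the second VCL probe set reached an exact permutation p of 0.0286 (difference -0.79).

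Further genes of these pathways were read through 1 probe set per gene at 9 h, against the 36.6% higher and 28.4% lower of all genes, whose median change was 0.04. Of 13 other YAP/TAZ-TEAD targets measured, out of 21 sought, 3 were higher and 2 lower, with a median of 0.02. This median is the change of ASAP1, whose mean was 1.86 at -22 h. BIRC5, AREG and TGFB2 had means of 2.17, 2.55 and 2.90 then, also near the lower end of the scale, where a change may be a lower bound. Higher were NUAK2 (log2 change 3.05, SE 0.26), a kinase, CCDC80 (2.99, SE 0.61), a matrix protein, and GADD45A (1.56, SE 0.38), a stress response gene. CRIM1, a membrane protein that binds growth factors, was lower (-1.15, SE 0.15). The other gene called lower was TGFB2, with a small change from its low level (-0.44, SE 0.16).

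Of 19 Hippo pathway and TEAD genes sought 7 were measured, and YAP1 and WWTR1, the genes of YAP and TAZ, were not among them. Of these 7 genes 5 were higher and 0 lower, with a median of 0.79. SAV1, the scaffold of the Hippo kinases, had a change of 2.70 (SE 0.13) and STK4, such a kinase, 0.79 (SE 0.14). The factors TEAD3 and TEAD4 had 2.20 (SE 0.20) and 1.14 (SE 0.10). All 4 were higher in 8 of 8 cows. SAV1 and TEAD3 had their highest mean at 6 h (12.17 and 8.13), before the ANKRD1 peak.

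Of 7 immediate early TCF-SRF targets 5 were higher and 0 lower, with a median of 1.62. FOS rose by 5.43 (SE 0.48), JUNB by 3.82 (SE 0.26), EGR1 by 2.77 (SE 0.69) and MCL1, a survival factor of the BCL2 family, by 1.62 (SE 0.19). FOS, JUNB and EGR1 already had their highest mean at 3 h, with 9.31, 10.69 and 10.48, when 0 of the 8 target probe sets were called.

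The 32 other cytoskeletal MRTF-SRF targets split, with 12 higher and 9 lower and a median of 0.06. TPM4 (2.75, SE 0.12) and CNN3, a calponin of non-muscle cells (1.43, SE 0.14), were higher, and MYH11 (-2.33, SE 0.21) and PDLIM1, a PDZ and LIM domain protein of actin fibres (-1.75, SE 0.15), were lower. Of 9 relatives of ANKRD1, RFLNA and the CCN genes that were sought, FLNC and CCN5 were matched to a probe set. They had means below 3 at every hour and were not called.

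**Figure D5:**
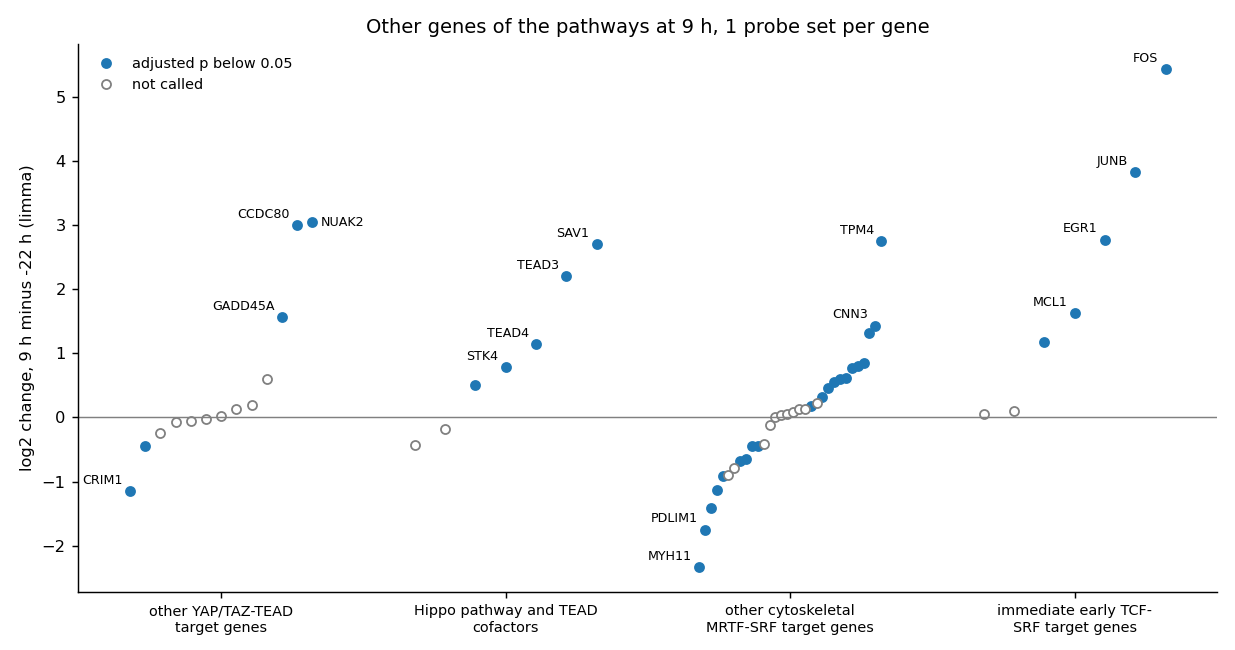
Log2 change from -22 to 9 h (y axis, limma) of the measured genes of 4 lists (x axis), 1 point per gene, ordered by size within a list. Filled points are calls at an adjusted p below 0.05, and the 4 called genes with the largest change are named in each list. The immediate early and Hippo lists hold no gene called lower, and the cytoskeletal list holds 12 called higher and 9 lower.

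Markers of other cell types were counted at 9 h against the same 36.6% higher and 28.4% lower of all genes. Of 8 hepatocyte markers 1 was higher and 5 lower, and of 8 endothelial markers 1 was higher and 6 lower. Of 6 macrophage markers 0 were higher and 3 lower. Bile duct markers, with 1 of 4 higher and 1 of 4 lower, were close to the share of all genes. Of 4 neutrophil markers 3 were higher (S100A8, S100A9 and S100A12), with a summed level of 98.7 to 275 at -22 h and 5314 to 32856 at 9 h. The hepatocyte markers summed to 244247 to 311471 before LPS and 231578 to 262591 at 9 h. Their part in the values of the members was not tested.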

How the data were processed

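Liver RNA of 8 cows was measured on 36 Affymetrix Bovine Genome Arrays. The authors made the deposited log2 values with GCRMA in R, which corrects the background from probe sequence, applies quantile normalization and gives 1 value per probe set and array. These values were used as deposited. By the platform annotation 13318 of the 24128 probe sets carry the symbol of 1 gene and 86 carry several, while 10724 are not listed. Genes outside the members were represented by their brightest probe set, the one with the highest average over the 36 arrays.

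Linear models were fitted to every probe set with limma, as the study did (limma 3.58.1, R 4.3.3), here with hour as the single factor. Each hour was compared with -22 h (Benjamini-Hochberg, 0.05) and successive hours with each other (Bonferroni, 0.01). The code was tested on simulated data. Permutation tests and figures were made in Python 3.11.15. The number of cows limits the precision.

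The members and lists were chosen with earlier results of these data known. Named genes are all members, the 4 called genes with the largest change in each list, and the 6 and 4 genes most like ANKRD1 and RFLNA. Some list genes that were low on the scale or not measured are named as well. The individual marker genes that the text names were picked with their values in view.

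The cow number, from the labels, pairs the samples: deviations from the means at -22, 9 and 48 h correlated within a cow at 0.293 on average (0.116 to 0.505) and between cows at -0.042. Alternatives were the cow as a fixed or random block, leaving out 1 cow at a time, keeping the 4 cows that have all hours, dropping 2 arrays (cow 2 at 48 h and cow 1 at -22 h), centring arrays on their median, array weights, dropping probe sets that reach a log2 value of 5 on fewer than 4 arrays, other adjustments of p, and averaging the probe sets of 1 gene. Leaving out the array of cow 6 at 48 h was chosen after seeing the data. No sequences are given, and 1 further list is not reported here.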

Additional observations from a re-analysis of the deposited data

Results flagged for a closer look

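In 6 of 66 groups of 4 or 8 cows, 1 cow stood far from the others of its hour by Dixon's criterion, and chance alone gives about 1 in 20 groups. ACTA2 in cow 2 at 48 h was 6.67, with the next cow at 8.53. The first VCL probe set in cow 7 at 12 h was 7.57, with the next cow at 8.32. CNN1 was 4.96 in cow 7 at -22 h (next 4.75), 4.70 in cow 1 at 3 h (next 4.63) and 4.64 in cow 3 at 12 h (next 4.73). The second ANKRD1 probe set was 2.87 in cow 1 at -22 h (next 2.97). The CNN1 and ANKRD1 gaps were below 0.25 log2 units. The 2 cows with ANKRD1 above the rest at 48 h were not found by this criterion, which looks at a single cow.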

How the results depend on the processing

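No member changed direction where it was called in either setting, and 33 values past the threshold in neither setting changed sign. Of the log2 changes of members 856 kept their side of the threshold or moved by less than their spread, 11 lost their call, 6 gained one and 7, all of ANKRD1, moved in size. With the cow as a replicate block 1 target probe set was DE in place of 2, CCN1 being lost, and no other call of a member changed with this paired fit. Of the 8 target probe sets 4 were called at 6 h and 4 at 9 h. Bonferroni adjustment left 0 and 1, and the 4 cows with all hours left 2 at 9 h. At 48 h median centring gave 1 in place of 0 (CNN1), and leaving out 1 cow gave 0 to 1 (VCL, without cow 7). For DE, leaving out 1 cow gave 1 to 2 (CCN1 lost without cow 1, 3 or 7), the 4 cows with all hours 1, and a Benjamini-Hochberg threshold of 0.01 gave 5. At 9 h 5 YAP/TAZ-TEAD targets were called, against 3 with the 4 cows and 2 with Bonferroni adjustment. The latter also gave 3 Hippo genes in place of 5, 10 cytoskeletal genes in place of 21 and 3 immediate early genes in place of 5. Across cows at 9 h r was 0.832 for CCN1 and 0.736 for CCN2 with changes, a description only, against 0.605 and 0.578 with levels. Leaving out 1 cow in the comparison of earlier biopsies gave 0 to 1 (cow 8). The mean of both VCL probe sets was not called at 6 h (-0.21, adjusted p = 0.14) and was at 9 h (0.36, adjusted p = 0.0014). The filter on dim probe sets removed SRF and the second VCL probe set, whose level may be too low to show a fall. With 4 cows at 3, 6 and 12 h a single cow can decide a call, as for CCN2 at 12 h.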
